A study of Homo sapiens with 15 samples.

Results

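The BCL2 family of apoptosis regulators was examined through 10 genes: BCL2, BCL2L1, MCL1, BAX, BAK1, BCL2L11, BMF, BBC3, PMAIP1, and BID. They were taken by gene name, and all 10 were found among the 19612 gene symbols of the deposited table. RNA had been sequenced from 15 libraries, 3 for each of 5 conditions. The human lung adenocarcinoma line H1975 carries EGFR with both L858R and T790M, and H1975–OR is an osimertinib-resistant derivative with the same labelled EGFR status, kept in medium with 500 nM osimertinib. H1975 cells received vehicle (Samples 1a to 1c). H1975–OR cells received vehicle (Samples 2a to 2c), 1,25(OH)2D3 (Samples 3a to 3c), osimertinib (Samples 4a to 4c), or the combination of both agents (Samples 5a to 5c). 1,25(OH)2D3, the active hormone form of vitamin D3, was given at 100 nM, and osimertinib, an EGFR inhibitor, at 500 nM. For RNA, treatment ran for 96 h with doses at 0, 48, and 92 h in medium with charcoal-stripped serum. Vehicle-treated H1975–OR cells were therefore cells withdrawn from the osimertinib in which they had been kept. A single resistant line was studied, so resistance and any other property of that line cannot be told apart.

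BCL2 family proteins decide whether the outer mitochondrial membrane is opened during apoptosis. BAX and BAK1 form the pores, the anti-apoptotic proteins encoded by BCL2, BCL2L1, and MCL1 hold them in check, and the BH3-only proteins either neutralize the anti-apoptotic members or activate the pore formers directly. In EGFR-mutant lung cancer cells the BH3-only proteins BIM, encoded by BCL2L11, and BMF are known links between loss of EGFR signaling and cell death. Much of this control acts on the proteins through phosphorylation, binding, and turnover, which RNA levels do not measure.

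For BMF, PMAIP1, and BCL2L11, the 250 bases before the annotated transcript start are shown 5′ to 3′ in RefSeq coordinates of GRCh38.p14. BMF is shown because its levels differed most between conditions, and BCL2L11 because it is the other BH3-only gene tied to EGFR signaling. PMAIP1 is shown because its mean level was lower in each H1975–OR condition than in H1975. The means of BAX, BID, and BCL2L11 were so too, and PMAIP1 was called in no comparison. In GENCODE 44 on GRCh38, BMF spans chr15:40087890-40108892 (minus strand), PMAIP1 chr18:59899996-59904305 (plus strand), and BCL2L11 chr2:111119378-111168444 (plus strand). Of the members called below, BCL2 spans chr18:63123346-63320128 and BAK1 chr6:33572547-33580293, both on the minus strand. BMF has 2 such windows, chr15:40106967-40107216 and chr15:40108880-40109129, both on the minus strand. The first lies inside the gene, outside exons of that strand, and 13 bases of the second fall in an exon of another BMF transcript. PMAIP1 has chr18:59899746-59899995, before the gene, and BCL2L11 has chr2:111120664-111120913, which lies inside the gene. Both are on the plus strand and outside exons of that strand. Capitals mark matches, on either strand, to TAAACA, a core recognized by forkhead factors such as FOXO3, or to AGGTCA, the repeated unit of vitamin D response elements.
BMF, first window: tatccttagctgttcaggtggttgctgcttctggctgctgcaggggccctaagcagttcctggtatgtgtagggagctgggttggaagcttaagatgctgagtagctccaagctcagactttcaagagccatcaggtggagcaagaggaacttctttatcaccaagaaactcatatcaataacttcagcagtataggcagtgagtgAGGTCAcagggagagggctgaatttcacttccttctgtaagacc
BMF, second window: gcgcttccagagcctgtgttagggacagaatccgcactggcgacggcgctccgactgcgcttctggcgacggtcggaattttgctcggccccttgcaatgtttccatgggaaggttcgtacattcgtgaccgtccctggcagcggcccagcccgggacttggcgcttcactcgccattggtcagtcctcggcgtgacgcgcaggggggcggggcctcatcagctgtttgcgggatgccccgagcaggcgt
PMAIP1: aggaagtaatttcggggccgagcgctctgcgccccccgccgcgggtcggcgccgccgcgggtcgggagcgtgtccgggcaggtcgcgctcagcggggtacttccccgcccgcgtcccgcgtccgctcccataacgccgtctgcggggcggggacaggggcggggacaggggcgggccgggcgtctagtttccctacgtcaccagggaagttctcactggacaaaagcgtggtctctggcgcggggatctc
BCL2L11: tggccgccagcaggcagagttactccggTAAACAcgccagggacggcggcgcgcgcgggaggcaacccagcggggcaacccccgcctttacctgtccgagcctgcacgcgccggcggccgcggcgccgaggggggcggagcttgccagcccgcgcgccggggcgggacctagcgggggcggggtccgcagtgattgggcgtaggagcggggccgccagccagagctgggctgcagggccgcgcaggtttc

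The match to AGGTCA in the first BMF window lay 44 bases before the start, and the match to TAAACA in the BCL2L11 window lay 222 bases before it. RefSeq windows were found for 9 of the 10 members, 15 windows in all. Besides BCL2L11, BID had TAAACA in one of its windows, and among members BMF alone had AGGTCA. Of all 35116 windows, 11% held TAAACA and 12.1% held AGGTCA on either strand, so these short matches are common. The full element, AGGTCA repeated after a spacer of any 3 bases, occurred in 2 windows, and the variant with AGTTCA in place of AGGTCA in 0. Neither was found in a member's window. These matches describe letters in a window of 250 bases and say nothing about binding.

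The estimated counts of a library summed to between 4378030 and 6140120, of which between 3446 and 4425 fell in the 10 genes. Sample 3a was left out of the fits, as the methods of the study do. In the counts used here it also had 1.54% in mitochondrial genes, against 0.424% to 1.05% in the other libraries. CYP24A1, the vitamin D-degrading enzyme induced by its own hormone, lay between 676.5 and 1470 CPM (the count as a share of the TMM-adjusted library total, on the usual per-million scale) in the 6 libraries given 1,25(OH)2D3 and between 3.31 and 25.6 CPM in the other 9. DUSP6, a phosphatase gene expressed downstream of EGFR and MAPK signaling, was at 3.89, 18.6, and 27.6 CPM in vehicle-treated H1975–OR (2a, 2b, 2c) and at 4.57, 4.10, and 9.20 CPM with osimertinib. It was thus already low in Sample 2a, and the groups overlapped. ETV5, of the same pathway, also overlapped between these groups, at 48.9, 118.9, and 108.0 CPM with vehicle and at 42.4, 91.1, and 118.8 CPM with osimertinib. By edgeR's quasi-likelihood test neither DUSP6 nor ETV5, nor SPRY4 of that pathway, was called with osimertinib against vehicle. Of 4 haematopoietic and 3 endothelial markers, the summed levels were at most 59.5 and 12.9 CPM in any library, whereas 6 epithelial markers summed to at least 3185 CPM. The epithelial gene CDH1 was lower by 5.11 on the log2 scale in vehicle-treated H1975–OR than in H1975 (SE 0.50, adjusted p = 0.000557, edgeR's quasi-likelihood test), so this defining marker differed between the lines. By this test 1 of 6 epithelial markers was called higher and 4 lower, where 20.1% of all tested genes were called in either direction. Of 3 measured mesenchymal markers 1 was called higher and 1 lower. VIM was higher by 0.51 on the log2 scale without a call (SE 0.18, adjusted p = 0.0763).

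Levels were compared between genes as CPM per kilobase (kb) of the canonical transcript in GENCODE 44. MCL1 stood highest, at 98.3 ± 6.03 CPM per kb (SD, n = 3) in H1975 and 110 ± 12.3 CPM per kb (SD, n = 3) in vehicle-treated H1975–OR. BCL2L1 was second in all 5 conditions, from 51.0 to 77.3 CPM per kb. BAK1, PMAIP1, BID, and BAX formed a middle group, with condition means from 6.68 to 26.1 CPM per kb. In vehicle-treated H1975–OR the neighbours BAK1 (20.6 ± 1.42 CPM per kb; SD, n = 3) and PMAIP1 (19.0 ± 2.93 CPM per kb; SD, n = 3) lay within their spread, as did BID (14.8 ± 3.71) and BAX (9.60 ± 5.07), with BID also within that of PMAIP1 and BAX within that of BMF. BMF, BCL2, and BCL2L11 followed at 3.92 ± 1.13, 2.93 ± 1.07, and 2.39 ± 0.853 CPM per kb, again within their spread of one another. BBC3 was lowest in every condition, at 0.252 to 0.806 CPM per kb, though in H1975 within the spread of BCL2 (0.75 ± 0.403 CPM per kb; SD, n = 3). The order of the 2 most abundant genes was the same throughout, while BMF moved most. It stood at 1.02 ± 0.445 CPM per kb in H1975 (SD, n = 3) and at 21.4 ± 14.4 CPM per kb (SD, n = 3) with both agents. These values assume that the canonical transcript is the one expressed.

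**Figure D1:**
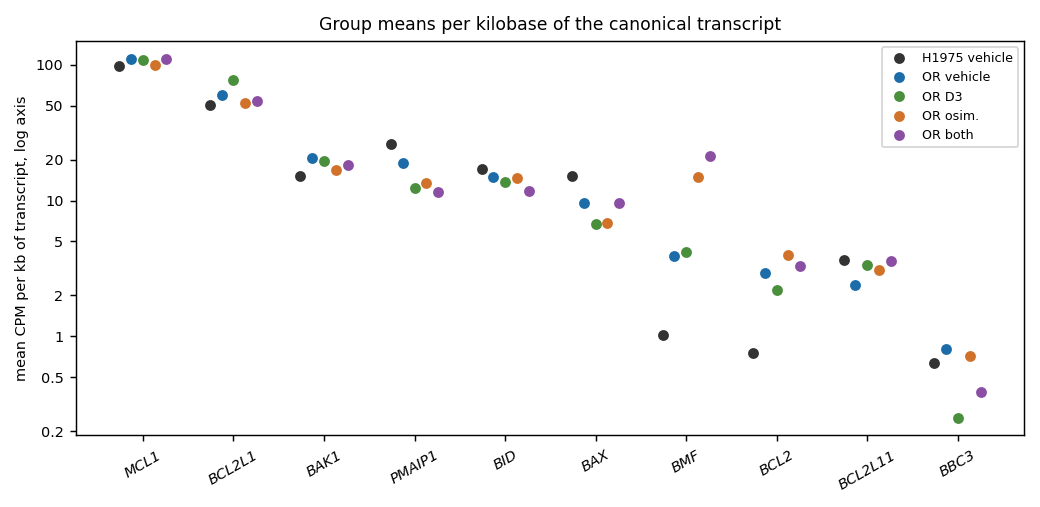
Mean level of each gene in each condition, in CPM per kb of the canonical transcript on a log axis; points are group means without Sample 3a, colored by condition (OR, H1975–OR; D3, 1,25(OH)2D3; osim., osimertinib; both, both agents), and genes are ordered by vehicle-treated H1975–OR. MCL1 and BCL2L1 lie above all other genes in every condition, and BMF spans 1.02 to 21.4 CPM per kb.

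Vehicle-treated H1975–OR cells were compared with vehicle-treated H1975 cells to ask how the resistant line differed from its parent. BCL2, BMF, and BAK1 were called higher in H1975–OR, by 1.97, 1.96, and 0.46 on the log2 scale, and no member was called lower. These were 3 of the 10 members tested. Over all 12513 genes, 20.1% were called in either direction and 9.89% were called higher. The members' median log2 fold change was 0.21, beside 0.01 over all genes tested. In bulk RNA, a change in the make-up of the cell population and a change in RNA per cell cannot be told apart.

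Of the anti-apoptotic genes, BCL2 stood at 8.32, 3.10, and 4.07 CPM in the H1975 libraries (1a, 1b, 1c). In vehicle-treated H1975–OR it stood at 13.9, 28.3, and 18.3 CPM (2a, 2b, 2c), so every resistant library was above every parental one. The fitted fold was 3.92 (log2 1.97, SE 0.42, adjusted p = 0.0133, edgeR's quasi-likelihood test). The call was lost without Sample 1c (adjusted p = 0.0509) and without Sample 2b (adjusted p = 0.0512). BCL2L1, which encodes BCL-XL, was at 108.1, 146.6, and 139.6 CPM in H1975 and at 114.8, 164.8, and 180.8 CPM in H1975–OR, and the libraries overlapped (log2 0.24, 95% interval −0.18 to 0.66, adjusted p = 0.401). MCL1, whose protein turns over quickly, was at 360.7, 402.7, and 401.1 CPM and at 459.8, 380.1, and 467.7 CPM in turn. Its log2 difference of 0.18 had a 95% interval from −0.09 to 0.45 (adjusted p = 0.313). The rise was thus called for the anti-apoptotic gene with the lowest level per kb, and a difference between the genes was not tested.

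Of the effectors, BAK1 was at 33.8, 32.5, and 32.0 CPM in H1975 and at 46.2, 46.5, and 41.1 CPM in H1975–OR. The ranges did not overlap, and the rise of 0.46 on the log2 scale (fold 1.38, SE 0.13) had an adjusted p of 0.0413. It passed in 3 of 14 alternative analyses, with adjusted p from 0.0457 to 0.121 over all of them, and in none of the 6 that left out a library. BAX was low and scattered, at 2.43, 12.8, and 20.8 CPM in H1975 and at 9.0, 3.10, and 10.8 CPM in H1975–OR. Its 95% interval, from −2.72 to 1.47 on the log2 scale, allowed a several-fold change either way.

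Of the BH3-only genes, BMF was at 6.24, 2.37, and 5.70 CPM in H1975 and at 22.3, 20.5, and 12.3 CPM in H1975–OR, with no overlap. Its fold was 3.88 (log2 1.96, SE 0.48, adjusted p = 0.0234). The adjusted p rose to 0.07 without Sample 1b, 0.0574 without 1c, and 0.0689 without 2b. With Sample 3a kept in the fit it was 0.0514, and with all 14 other libraries in one fit it was 0.0543. PMAIP1, which encodes NOXA, an antagonist of MCL1, was at 44, 53.1, and 51.5 CPM in H1975 and at 40.9, 29.99, and 37.2 CPM in H1975–OR. Every vehicle-treated H1975–OR library was below every parental one, but the difference of −0.44 on the log2 scale did not pass (SE 0.18, adjusted p = 0.118).

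The remaining BH3-only genes overlapped between the lines. BCL2L11 was at 11.4, 16.8, and 27.7 CPM in H1975 and at 11.1, 8.48, and 17.0 CPM in H1975–OR (log2 −0.59, 95% interval −1.44 to 0.26, adjusted p = 0.299). BID, which links death receptors to mitochondria, was at 29.8, 43.8, and 38.3 CPM and at 39.5, 33.5, and 23.5 CPM (log2 −0.20, adjusted p = 0.589). BBC3, which encodes PUMA, had 4, 2, and 12 counts in H1975 and 2, 14, and 6 counts in H1975–OR, in part close to the floor of 3 counts. Its 95% interval, from −2.10 to 2.85 on the log2 scale, allowed a several-fold change either way. A count of 0 still allows up to 3 counts, or 0.477 to 0.708 CPM by library, for counting error only. BBC3 did not pass the filter on low counts in the fit with osimertinib, where 9 members were tested.

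Counted by overlap alone, 3 members (BCL2, BAK1, and BMF) had every H1975–OR library above every H1975 library, where 19% of all tested genes did, and PMAIP1 had every one below, where 20.3% did. Markers of proliferation differed between the lines too. Of 9 such genes 8 were lower in H1975–OR. By edgeR 7 were called lower, where 20.1% of all tested genes were called in either direction. The summed level of the 9 was 2058 to 2360 CPM in H1975 and 554.7 to 940 CPM in vehicle-treated H1975–OR. Their part in the differences of BCL2, BMF, and BAK1 was not tested.

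**Figure D2:**
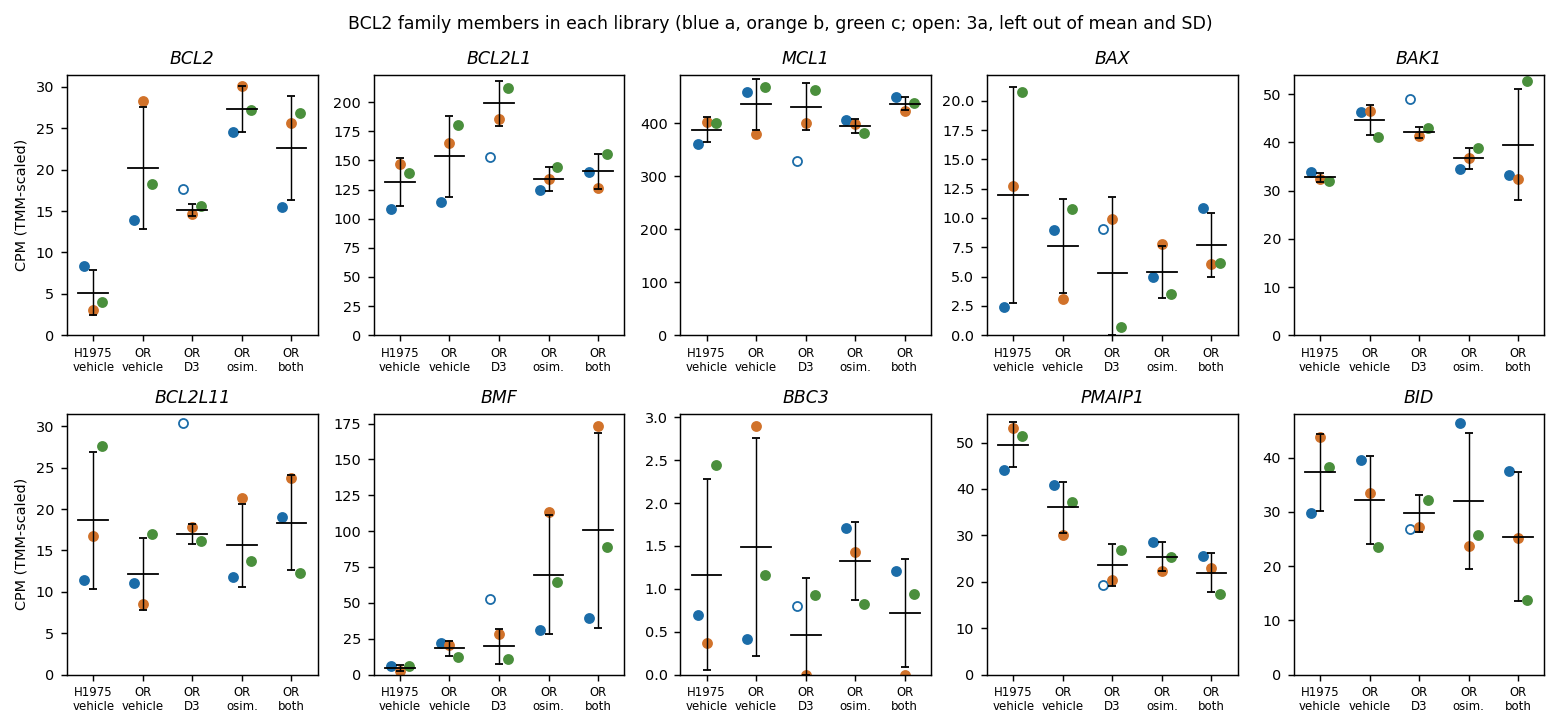
Level of each member in every library, in TMM-scaled CPM on axes starting at 0; points are libraries colored by replicate letter, the open point is Sample 3a, and horizontal lines with bars give the mean and SD without Sample 3a (lower bars stop at 0; OR, H1975–OR; D3, 1,25(OH)2D3; osim., osimertinib). In vehicle-treated H1975–OR, BCL2, BAK1, and BMF lie entirely above H1975, as do 19% of tested genes. PMAIP1 lies entirely below, as do 20.3%. BMF reaches 113.4 CPM with osimertinib and 173.2 CPM with both agents.

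1,25(OH)2D3 was compared with vehicle in H1975–OR cells to ask what the hormone changed in resistant cells. None of the 10 members was called by edgeR's quasi-likelihood test, and DESeq2 called 0, beside 124 genes in all. By edgeR 1 member, PMAIP1, had an unadjusted p under 0.05, ranking 404 of 12513 genes by p. Over all genes, edgeR called 19 of 12513, or 0.152%. The fit held 2 libraries of this group, 3b and 3c, and the members' median log2 difference was −0.10 beside −0.01 over all genes.

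PMAIP1 was the member with the smallest p. It was at 20.4 and 26.8 CPM in Samples 3b and 3c, below the 29.99 to 40.9 CPM of the vehicle libraries, and at 19.4 CPM in Sample 3a. The difference of −0.61 on the log2 scale (SE 0.21, 95% interval −1.08 to −0.14) had an adjusted p of 0.535. BCL2L1 was at 185.4 and 212.6 CPM, above the 180.8 CPM of the highest vehicle library, and at 152.7 CPM in Sample 3a, within the vehicle range (log2 0.38, adjusted p = 0.761). Within letters it was higher than vehicle by 0.41 for a, the pair that holds Sample 3a, 0.17 for b, and 0.23 for c on the log2(CPM + 2) scale. With the replicate block, without Sample 3a, the log2 difference was 0.24 (adjusted p = 0.904). PMAIP1 differed by −1.004, −0.51, and −0.45 in the same order of letters. With 3b and 3c alone, BCL2L1 was the 1 member entirely above vehicle, as were 13.1% of tested genes, and PMAIP1 was the 1 member entirely below, as were 12.3%. MCL1, at 400.0 and 463.3 CPM, was the member whose level was estimated most closely, with a 95% interval from −0.31 to 0.29 on the log2 scale.

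The others overlapped with vehicle or had wide intervals. BCL2 was at 14.6 and 15.6 CPM (log2 −0.42, 95% interval −1.44 to 0.61), BAK1 at 41.3 and 42.9 CPM (log2 −0.08, −0.42 to 0.25), and BID at 27.3 and 32.2 CPM (log2 −0.11, −0.70 to 0.48). BCL2L11 was at 17.8 and 16.2 CPM (log2 0.48, 95% interval −0.46 to 1.42). BMF was at 28.4 and 11.2 CPM, on either side of its vehicle range (log2 0.10, 95% interval −1.04 to 1.24). BAX was at 9.88 and 0.74 CPM (log2 −0.54, 95% interval −2.96 to 1.89, adjusted p = 0.95). BBC3 had 0 and 5 counts, near the floor, and its 95% interval ran from −4.66 to 1.51 on the log2 scale (adjusted p = 0.876).

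Osimertinib was compared with vehicle in H1975–OR cells to ask how cells given the drug they were kept in differed from cells withdrawn from it. By edgeR no member was called among the 9 tested, and DESeq2 called 0, beside 117 genes in all. By edgeR 2 had an unadjusted p under 0.05, BMF and PMAIP1, ranking 264 and 758 of 12503 genes by p. Over all genes edgeR called 6 of 12503, or 0.048%. BMF was at 30.8, 113.4, and 64.6 CPM with osimertinib (4a, 4b, 4c) against 22.3, 20.5, and 12.3 CPM with vehicle, so the groups did not overlap. The fitted log2 difference of 1.92 (fold 3.79, SE 0.61, 95% interval 0.58 to 3.27) had an adjusted p of 0.448. With the replicate letter as a block it was 1.71, with an adjusted p of 0.141. BMF alone of the members was entirely above vehicle, as were 5.96% of tested genes.

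The letters differed in the size of this BMF difference. On the log2(CPM + 2) scale it was 0.43 for letter a, 2.36 for b, and 2.22 for c. DUSP6, which marks EGFR signaling, differed little for letter a (3.89 CPM with vehicle and 4.57 CPM with osimertinib) and was lower with osimertinib for b (18.6 and 4.10 CPM) and c (27.6 and 9.20 CPM). SPRY4, another gene of that pathway, was at 3.89, 19.6, and 46.9 CPM with vehicle and at 2.66, 10.4, and 12.1 CPM with osimertinib in the same order. The share of mitochondrial counts in Sample 4a was 1.04%, against 0.671% and 0.68% in 4b and 4c. All 9 proliferation markers were higher with osimertinib than with vehicle, with a median log2 difference of 0.68 beside 0.01 over all genes. Of these 9, edgeR called 0. The part of these measures in the BMF levels was not tested.

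PMAIP1 was at 28.5, 22.3, and 25.4 CPM with osimertinib, below each vehicle library, and BAK1 was at 34.4, 36.9, and 38.9 CPM, also below each vehicle library. Their log2 differences of −0.50 (SE 0.21, adjusted p = 0.624) and −0.28 (SE 0.19, adjusted p = 0.841) did not pass, and 6.81% of tested genes lay entirely below vehicle. BCL2 was at 24.6, 30.1, and 27.2 CPM (log2 0.44, 95% interval −0.20 to 1.07). BCL2L1 was at 124.2, 134.3, and 144.8 CPM and MCL1 at 407.0, 398.3, and 380.8 CPM, with 95% intervals of −0.55 to 0.18 and −0.38 to 0.11 on the log2 scale. BCL2L11 was at 11.8, 21.3, and 13.7 CPM (log2 0.36, 95% interval −0.41 to 1.13), overlapping vehicle. BID, at 46.4, 23.8, and 25.8 CPM, had a log2 difference of −0.00085 with an interval from −0.83 to 0.83, and BAX, at 4.95, 7.78, and 3.48 CPM, one from −2.17 to 1.18. BBC3 had 9, 7, and 4 counts.

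**Figure D3:**
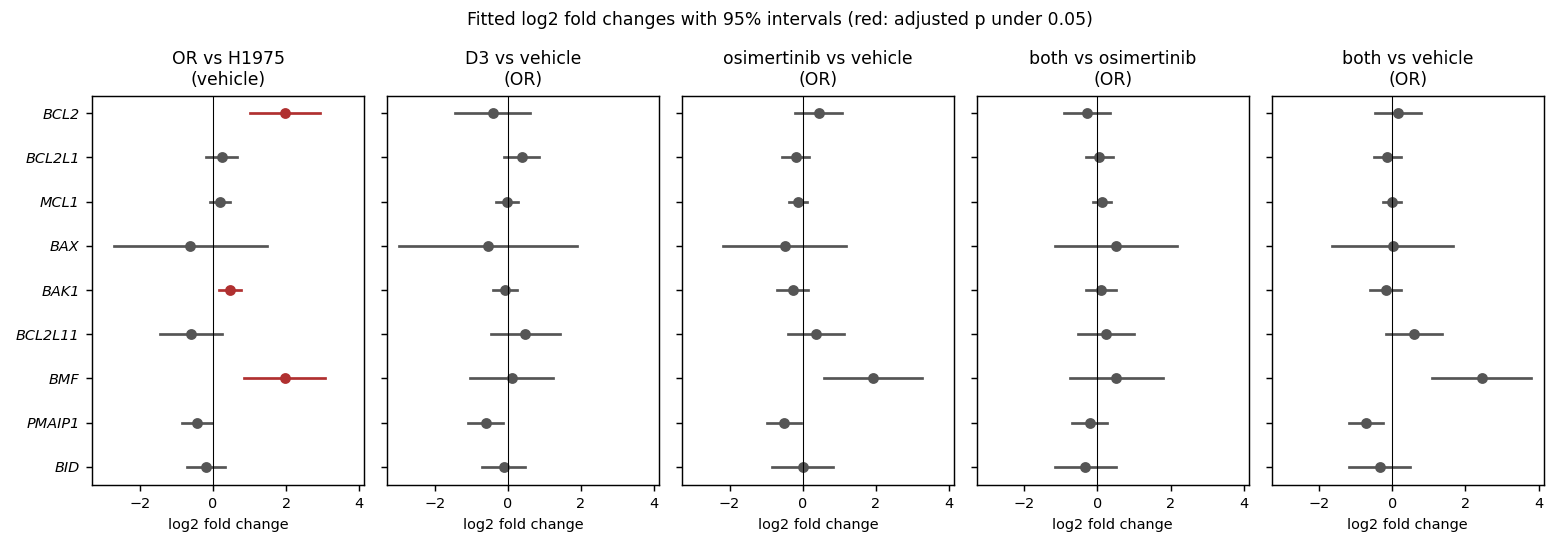
Fitted log2 fold change of each tested member (points) with its 95% interval (lines) in 5 comparisons by edgeR, red where the adjusted p was under 0.05; BBC3 is not drawn (OR, H1975–OR; D3, 1,25(OH)2D3; both, both agents). BCL2, BMF, and BAK1 are red in the comparison of the lines and nothing is red elsewhere, and the widest intervals belong to BAX.

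Both agents were compared with osimertinib alone to ask what 1,25(OH)2D3 added in the presence of the drug. By edgeR's quasi-likelihood test 0 of 9 members were called, beside 12 of 12503 genes, or 0.096%, and 0 had an unadjusted p under 0.05. DESeq2 called 0 members, beside 66 genes in all. BMF was at 39.3, 173.2, and 88.9 CPM with both agents (5a, 5b, 5c) and was above the osimertinib library of the same letter each time, by 0.33, 0.60, and 0.45 on the log2(CPM + 2) scale. The groups overlapped widely, and the log2 difference of 0.52 had a 95% interval from −0.75 to 1.78 (adjusted p = 1). MCL1, at 449.6, 424.0, and 438.1 CPM, was the 1 member entirely above osimertinib, as were 3.82% of tested genes (log2 0.14, 95% interval −0.11 to 0.38). PMAIP1 was at 25.5, 23.0, and 17.5 CPM (log2 −0.22, 95% interval −0.69 to 0.25).

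Against vehicle, both agents gave the largest member difference among the treatments. BMF did not overlap with vehicle and was higher by 2.44 on the log2 scale (fold 5.43, SE 0.61, 95% interval 1.08 to 3.801), with an adjusted p of 0.149 by edgeR's quasi-likelihood test. By this test 0 of 9 members and 0.496% of all genes were called. An unadjusted p under 0.05 was found for 2 members, BMF and PMAIP1, ranking 203 and 387 of 12503 genes by p. BMF alone passed with the replicate block (log2 2.19, adjusted p = 0.0351), where 3.69% of genes passed, and in DESeq2's test (log2 2.45, adjusted p = 0.00189), where 2.91% passed. Over all 14 alternatives its log2 difference lay between 1.796 and 2.83 and its adjusted p between 0.00189 and 0.469. Within letters the difference was 0.77, 2.96, and 2.67 for a, b, and c on the log2(CPM + 2) scale, again smallest for a, and the share of mitochondrial counts was 1.04% in Sample 5a against 0.639% and 0.424% in 5b and 5c.

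PMAIP1 was lower than every vehicle library with both agents, by −0.72 on the log2 scale (SE 0.21, adjusted p = 0.211, and 0.0649 with the replicate block). Entirely above vehicle were 8.08% of tested genes and, of the members, BMF. Entirely below were 8.22% of genes and, of the members, PMAIP1. BCL2L11 was at 19.1, 23.7, and 12.3 CPM (log2 0.59, 95% interval −0.18 to 1.35, adjusted p = 0.549). BCL2, at 15.4, 25.6, and 26.9 CPM, BCL2L1, at 139.8, 126.0, and 155.9 CPM, and BAK1, at 33.3, 32.4, and 52.8 CPM, overlapped with vehicle. So did BID, at 37.5, 25.2, and 13.7 CPM, and BAX, at 10.8, 6.11, and 6.13 CPM, while BBC3 had 6, 0, and 4 counts. MCL1 differed from vehicle by −0.00090 on the log2 scale, with an interval from −0.25 to 0.25.

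The effects of 1,25(OH)2D3 with and without osimertinib were compared directly. None of the 9 members differed past the threshold, 0 had an unadjusted p under 0.05, and DESeq2 called 0 members. Over all genes 0%, or 0 of 12503, were called by edgeR and 11 by DESeq2. The intervals were narrowest for MCL1 (−0.22 to 0.52) and wide for BMF (−1.56 to 2.40). The comparisons within H1975–OR share their vehicle or osimertinib libraries and are not independent of one another. Side by side, the log2 differences of BMF were 0.10, 1.92, and 2.44 for 1,25(OH)2D3, osimertinib, and both agents against vehicle, and those of PMAIP1 were −0.61, −0.50, and −0.72.

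**Figure D4:**
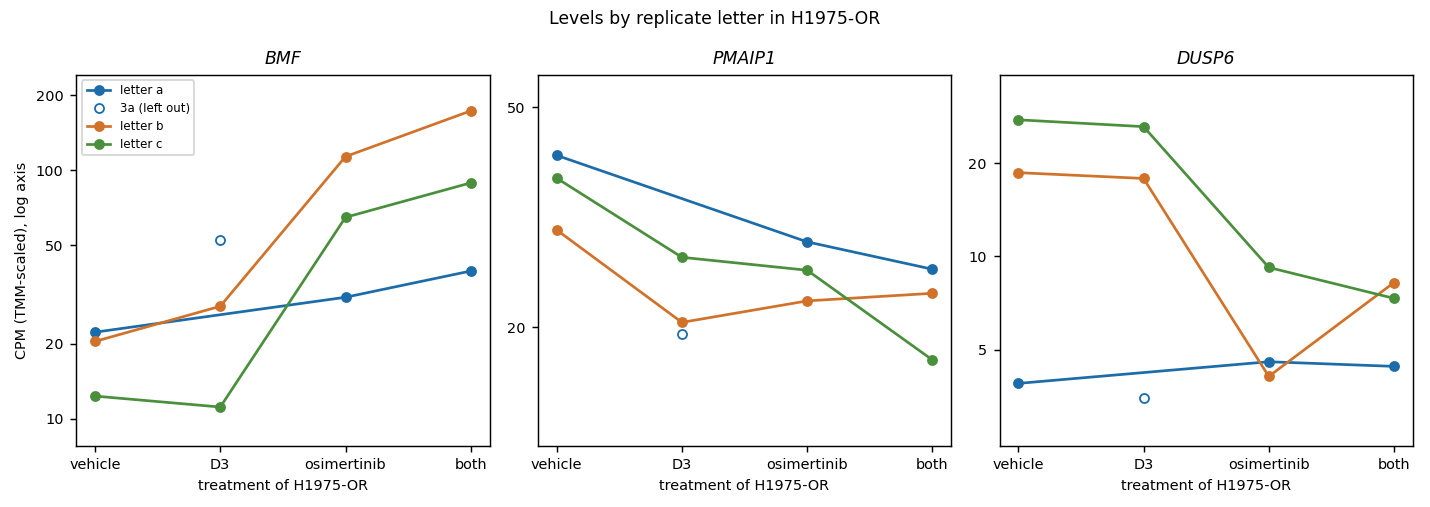
BMF, PMAIP1, and DUSP6 in the H1975–OR libraries, in TMM-scaled CPM on log axes, with lines joining libraries of the same replicate letter and Sample 3a as an open point outside the lines (D3, 1,25(OH)2D3; both, both agents). BMF of letters b and c is at 64.6 CPM or more with osimertinib and with both agents, whereas letter a reaches 39.3 CPM and has little DUSP6 (3.89 CPM) already with vehicle.

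As a description of the balance between opposing members, log2 ratios of CPM were taken within each library. BCL2L11 against MCL1 was −4.47 ± 0.57 in H1975 (SD, n = 3) and −5.22 ± 0.38 in vehicle-treated H1975–OR (SD, n = 3). It was −4.66 ± 0.25 with 1,25(OH)2D3 (SD, n = 2), −4.71 ± 0.45 with osimertinib (SD, n = 3), and −4.63 ± 0.50 with both agents (SD, n = 3). The mean of vehicle-treated H1975–OR was the lowest, but its libraries, from −5.486 to −4.785, overlapped with those of every other group. The difference was not tested. BAX against BCL2L1 was −3.92 ± 1.41, −4.49 ± 1.09, −6.20 ± 2.78, −4.71 ± 0.64, and −4.24 ± 0.50 in the same order. For this ratio no order of the conditions stands out from the spread.

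Other genes of apoptosis were followed as a list of 35, of which 33 passed the filter. Between the lines 2 were called higher and 2 lower in H1975–OR, where 20.1% of all 12513 tested genes were called in either direction. The median log2 difference was 0.06 beside 0.01 over all genes. BIRC5, which encodes survivin, an inhibitor of apoptosis that is also a mitotic protein, fell from 143.4, 136.6, and 145.9 CPM to 57.3, 22.3, and 30.8 CPM (log2 −1.93, SE 0.31, adjusted p = 0.00453). CYCS, encoding cytochrome c, fell by 0.47 on the log2 scale (SE 0.14, adjusted p = 0.0473). BNIP3L, a BCL2 relative that acts in removal of mitochondria, rose by 0.40 (SE 0.10, adjusted p = 0.0289), and RIPK1, a kinase of death receptor signaling, rose by 0.52 (SE 0.15, adjusted p = 0.0435). With DESeq2, 5 genes of the list were called higher and 2 lower, beside 3041 genes called in all. With the replicate block 1 was called higher and 1 lower, beside 2150 genes called in all.

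By group, no gene passed among the 2 measured anti-apoptotic relatives or the 5 executioner caspases and nuclease genes. Of the other groups, 1 of 5 pro-apoptotic BCL2 relatives (BNIP3L) and 1 of 10 genes of the death receptor arm (RIPK1) were called higher. Of 7 genes of mitochondrial release and the apoptosome (CYCS) and of 4 inhibitors of apoptosis (BIRC5), 1 each was called lower.

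In the comparisons of treatments edgeR called 0 of the 33 genes. An unadjusted p under 0.05 was found for 2 with 1,25(OH)2D3, 0 with osimertinib, 1 with both agents against osimertinib, 5 with both agents against vehicle, and 1 for the difference of effects. DESeq2 called 0, 0, 1, 2, and 0 in turn, beside 124, 117, 66, 364, and 11 of all genes. The share of all genes with an unadjusted p under 0.05 was not counted. FAS, the death receptor, chosen after its values were seen, was the gene called against osimertinib. It was at 11.3, 17.99, and 18.5 CPM with vehicle and at 29.4 and 38.5 CPM with 1,25(OH)2D3 (3b, 3c). It was at 12.9, 11.9, and 17.2 CPM with osimertinib and at 23.7, 40.0, and 51.0 CPM with both agents, above every osimertinib library. Its log2 difference of 1.44 between both agents and osimertinib had an SE of 0.31 and an adjusted p of 0.328. The adjusted p was 0.0448 with the replicate block, where 0.264% of genes were called, and 0.00991 in DESeq2's test, where 0.528% were called. Against vehicle, FAS was also called higher with the replicate block and by DESeq2, beside CYCS lower with the block and BNIP3L lower by DESeq2. No member passed the block or DESeq2 in the comparison of both agents with osimertinib.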

How the data were processed

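RNA of 15 samples was sequenced by the authors as stranded total RNA libraries. The deposited values are estimated counts per gene, which the authors obtained from Kallisto through tximport. Library totals differ, so the values are not on a common depth. The submitters' processing notes name CASAVA 1.8.2, STAR 2.5.2b, kallisto 0.43.0, and GRCh38. The transcript annotation, the tximport settings (and with them any adjustment for transcript length), and the strand setting of the counting are not given in the sources used here. Reads of overlapping genes could be shared, and exons of BCL2L1, MCL1, BAK1, BCL2L11, BMF, and BBC3 overlap those of other genes (ABALON, ADAMTSL4 and ADAMTSL4-AS1, GGNBP1, MIR4435-2HG, BMF-AS1, and MIR3190 and MIR3191).

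Counts were rounded and tested in R 4.3.3 with edgeR 4.0.16 (filterByExpr by group, minimum count 10 and total 15, TMM, quasi-likelihood test, Benjamini-Hochberg adjustment over all genes of a fit, threshold 0.05). One fit held 8 libraries and 12513 genes (both vehicle groups and Samples 3b and 3c), the other 12503 genes and all 11 H1975–OR libraries except 3a. CPM used TMM factors over all 15 libraries. Standard errors were the log2 fold change divided by the root of the F statistic. Differences within letters used log2(CPM + 2). The labels number the replicates by letter. The methods name 3 passages for the vehicle and 1,25(OH)2D3 groups, and where no passage is named the p-values measure the spread between samples, which may be technical.

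Letters were checked as pairs from the data, since no source says what they share. Deviations from group means correlated in every same-letter pair between vehicle and osimertinib (0.124 to 0.31) and vehicle and both agents (0.118 to 0.341). They also did between osimertinib and both agents (0.258 to 0.464) and vehicle and 1,25(OH)2D3 (0.192 to 0.34, with 3a). Between H1975 and vehicle-treated H1975–OR they did not (−0.0296 to 0.0219). Same-letter pairs of H1975 with the treated H1975–OR groups gave −0.123 to 0.104. Between 1,25(OH)2D3 and osimertinib or both agents, letter b gave −0.0144 and 0.0261. There letters a (with 3a) and c gave 0.178 and 0.267 with osimertinib, and 0.304 and 0.265 with both agents. Sample 3a was part of its group mean here. Among H1975–OR groups, pairs of different letters reached 0.127 (1,25(OH)2D3 and both agents), and 0.107 between vehicle and both agents.

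The members and lists were chosen with earlier results of these data known. All 10 members are named, the other apoptosis genes by the largest changes past the threshold, at most 4 a direction, and CYP24A1, DUSP6, SPRY4, and ETV5 as label checks. Alternatives were RLE size factors, DESeq2 1.42.0, other filters on low counts, 3a kept in, the replicate block, other sets of libraries, and each library left out in turn. Promoter windows came from RefSeq (GRCh38.p14) and transcript lengths from GENCODE 44 (GRCh38).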

Additional observations from a re-analysis of the deposited data

Results flagged for a closer look

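Sample 3a, given 1,25(OH)2D3 and left out of the fits, had 3 members above every vehicle-treated H1975–OR library, as did 33.7% of all tested genes, and 2 below, as did 34%. BMF stood at 52.33 CPM there against 12.3 to 22.3 CPM with vehicle and 28.4 and 11.2 CPM in Samples 3b and 3c. BCL2L11 stood at 30.38 CPM, the highest value of this gene in any library, against 8.48 to 17.0 CPM with vehicle. BAK1 stood at 48.99 CPM against 41.1 to 46.5 CPM with vehicle. MCL1 stood at 328.6 CPM, its lowest value in any library, against 380.1 to 467.7 CPM with vehicle, and PMAIP1 at 19.4 CPM against 29.99 to 40.9 CPM. The same library had 1.54% of its counts in mitochondrial genes, the highest share, and the highest summed level of haematopoietic markers, 59.5 CPM. Their part in these levels was not tested. No group had 4 or more libraries, so no value was tested as an outlier of its group.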

How the results depend on the processing

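No member's called direction reversed. Of 813 values of members under the alternatives, 748 kept their direction and side of the threshold, 18 lost and 2 gained a call, 44 uncalled values changed sign, and 1 (BBC3 with 1,25(OH)2D3, by DESeq2) had no adjusted p. The 3 members called between the lines became 1 (BCL2) with Sample 3a kept in or with all 14 other libraries in one fit, and 0 to 2 with each library left out. With both agents against vehicle, BMF was the 1 member called by DESeq2 and by the replicate block. The block changed no other member's call than that of BMF there and that of BAK1 between the lines (adjusted p = 0.0736), where the letters do not pair. Counts of all genes moved more. Between the lines they were 2521, 1636 with 3a kept in, and 1426 to 2835 with each library left out. For 1,25(OH)2D3 they were 19, 124 by DESeq2, 32 with no filter, 29 with at least 10 counts in every library and with all 14 libraries, 9 with the block and with the compared groups alone, and 5 to 18 with each library left out. Fitted in the 11 H1975–OR libraries, an alternative added once the data had been seen, the counts were 12, and 48 with the block. For osimertinib they were 6, 117 by DESeq2, 35 with the block, 12 with all 14 libraries, 2 with the groups alone, and 1 to 29 with each library left out. For both agents against osimertinib they were 12, 66 by DESeq2, 5 with 3a kept in, 33 with the block, 2 with the groups alone, and 3 to 9. For both agents against vehicle they were 62, 364 by DESeq2, 25 with 3a kept in, 461 with the block, 98 with all 14 libraries, 8 with the groups alone, and 4 to 110. For the difference of effects they were 0, 11 by DESeq2, and 0 to 1. The causes were not tested. With 2 or 3 libraries a group, BBC3 and BAX were both low and scattered, and the parts of depth and spread were not tested.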
